A study of Mus with 10 samples.

Results

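The 10 genes described here, Tek, Tie1, Pecam1, Cdh5, Kdr, Flt1, Cldn5, Vwf, Eng and Emcn, are genes by which the endothelial cells lining blood vessels are recognised. They were chosen by symbol, and all 10 were measured among the 22180 genes of the arrays, each by 1 probe set. The study measured whole-skin RNA on 10 Affymetrix mouse gene arrays, from BALB/c females that were 7-8 weeks old. PUVA, a therapy for psoriasis and other skin diseases, joins psoralen, a plant compound that binds DNA and cross-links it under light, with long-wave ultraviolet light (UVA). Per the labels, psoralen was put on the skin and 0.25 J/cm2 of UVA given 2 times a week for 2 weeks, and a gap of 7 days (4 arrays) or 3 days (4 arrays) followed before imiquimod, a cream that inflames mouse skin. The same treatment text also names UVB as an alternative to UVA, but the titles of these arrays name PUVA or control only. The 2 control arrays have no gap in the labels, which say neither what control skin received nor whether any arrayed skin had received imiquimod. All groups share strain, sex and age. No label says that arrays of a group came from separate mice, so the p-values below measure the spread between these arrays, which may be technical.

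Endothelial cells line every vessel of the dermis, and are held together by adherens and tight junctions. Vascular endothelial growth factors (VEGFs) drive their growth through the receptors Kdr and Flt1. Angiopoietins act on the receptor kinase Tek, also called Tie2, which with its orphan relative Tie1 keeps quiescent vessels stable. Several of these genes are not restricted to blood vessels. For example, Pecam1 and Vwf are also made by platelets or their precursors, Eng by activated macrophages and some stromal cells, Flt1 by some monocytes, and Tie1, Cdh5 and Pecam1 by lymphatic endothelium. These examples are not a full list, for Tek or for the other genes.

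Values are log2 values of the deposited table, whose arrays had medians of 5.83 to 5.86. Each gene is compared with itself only, since levels of different probe sets are not on a common scale. Over all genes the arrays correlated at 0.9876 to 0.9959 with each other. The 2 controls correlated at 0.9926, but differed widely in the keratins of the hair follicle's inner root sheath, made by growing hairs: the mean log2 value of 8 such genes was 4.59 to 4.80 in 7-day skin and 4.56 to 5.06 in 3-day skin, against 6.17 in control replicate 1 and 9.33 in control replicate 2. Control replicate 2 therefore stands apart, and results against control are given below with and without it where that matters. Tests are moderated limma tests over all 10 arrays, with p-values adjusted over all genes by Benjamini and Hochberg's method and a threshold of 0.05. In such whole tissue, fewer endothelial cells and less RNA per endothelial cell cannot be told apart.

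None of the 10 genes passed the threshold in any comparison. Few genes did: the percentage of all genes called was 0 in 7-day against control skin and 0.00451 in 3-day against control skin (Hamp, which encodes the iron hormone hepcidin, chosen for naming after its value was seen). It was 0.00902 in 7-day against 3-day skin, where the 2 genes were Hamp and the microRNA gene Mir377. Without the adjustment for many tests, p was under 0.05 for Tek in 7-day against control skin, for Tek, Eng and Cdh5 in 3-day against control skin, and for Eng and Cdh5 in 7-day against 3-day skin.

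The values themselves were nevertheless placed on 1 side. All 10 genes had a higher mean in 7-day than in control skin, a direction shared by 55% of all genes, and all 10 had a higher mean in 3-day than in control skin, a direction shared by 50.6% of all genes. Without control replicate 2 the counts were 8 of 10 in 7-day skin, where Pecam1 and Emcn turned, and 9 of 10 in 3-day skin, where Flt1 turned. The median log2 difference of the 10 genes was 0.11 in 7-day minus control skin, beside 0.015 over all genes, and 0.17 in 3-day minus control skin, beside 0.002 over all genes. Both comparisons use the same 2 controls. Averaged over the 10 genes, the log2 value was 8.15 to 8.25 on the 7-day arrays and 8.19 to 8.33 on the 3-day arrays, against 8.06 and 7.97 on the control arrays. The size of most of these differences was small: in 7-day skin 9 of the 10 genes differed from control by 0.24 or less, and the gene apart was Tek.

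**Figure D1:**
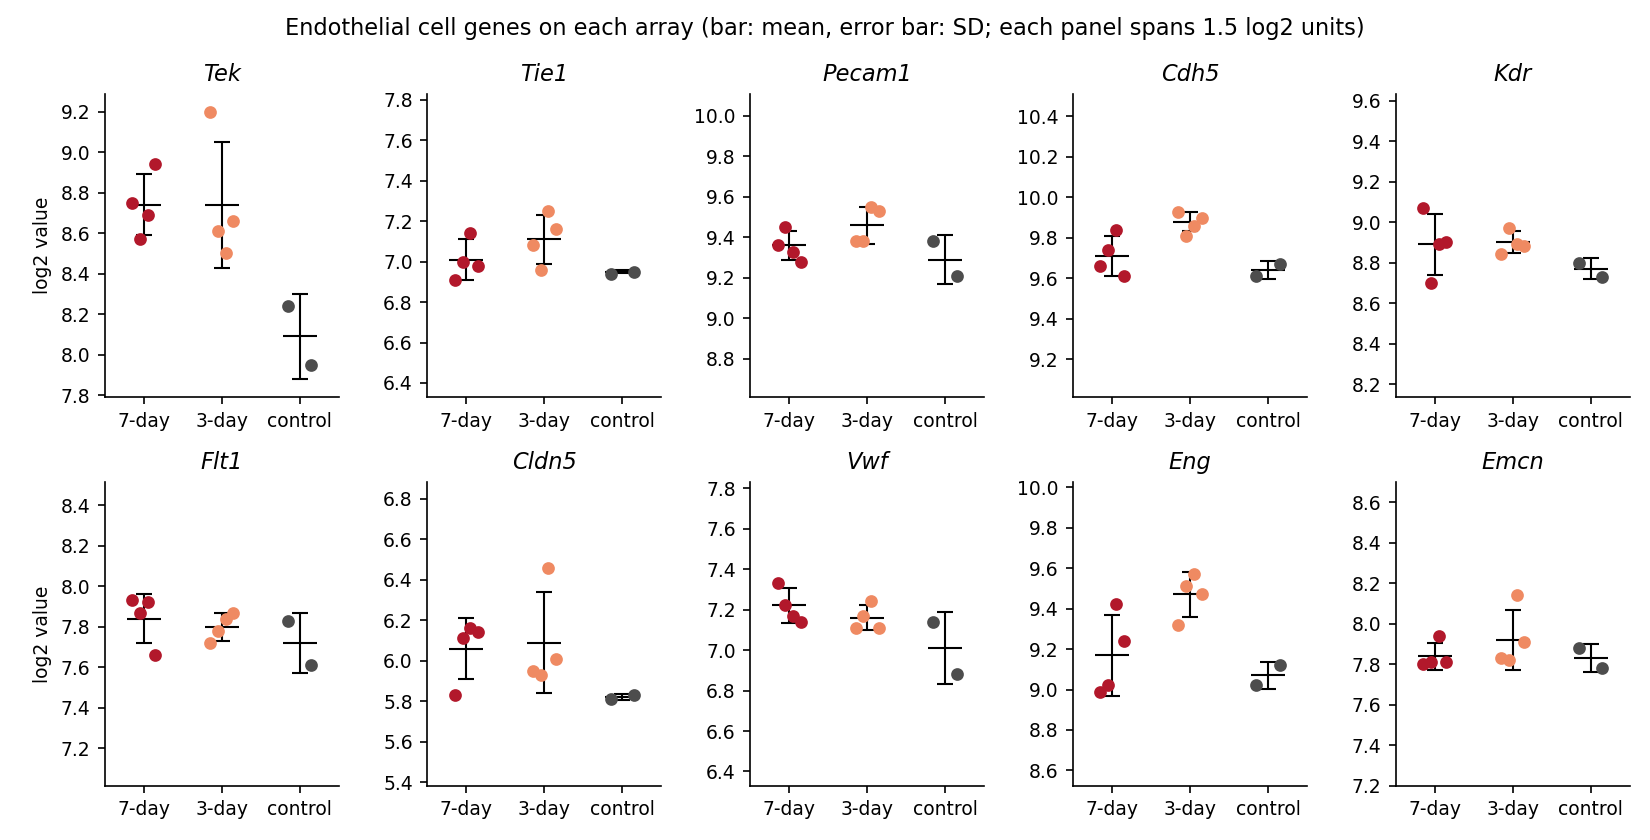
The log2 value of each endothelial cell gene on every array (points), with the group mean (bar) and SD (error bar), for 7-day (n = 4), 3-day (n = 4) and control skin (n = 2); every panel spans the same height. Tek stands 0.65 above control in both PUVA groups with no array overlapping, Eng and Cdh5 are highest in 3-day skin, and the other genes lie close together.

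Tek, the angiopoietin receptor, had the largest difference of the 10. Its probe set (17415469) had log2 values of 8.75, 8.57, 8.69 and 8.94 in 7-day skin, of 9.20, 8.61, 8.50 and 8.66 in 3-day skin, and of 8.24 and 7.95 in control skin. Every PUVA array lay above both controls, and 3-day replicate 1 was the highest of all. The means were 8.74 ± 0.15 in 7-day skin and 8.74 ± 0.31 in 3-day skin (SD, n = 4 each), against 8.09 ± 0.21 in control skin (SD, n = 2). The log2 difference was 0.65 ± 0.18 (SE) in 7-day minus control skin, a fold of 1.56, with an adjusted p of 0.748 by limma and rank 135 of all genes by p. In 3-day minus control skin it was 0.65 ± 0.18, a fold of 1.57, with an adjusted p of 0.319 and rank 315. Between the 7-day and 3-day groups the log2 difference was -0.005, with a 95% interval of -0.33 to 0.32 (exact permutation p = 0.971, two-sided). The interval holds differences of either sign about as large as 1 SD of the 3-day arrays, so equality is not shown.

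The Tek difference depended on the controls. Without control replicate 1 it was 0.79 in 7-day minus control and 0.80 in 3-day minus control skin. Without control replicate 2 it was 0.50 in 7-day minus control and 0.50 in 3-day minus control skin, and its unadjusted p no longer stayed under 0.05 in either. Tek was still above the remaining control on all 8 PUVA arrays. Tie1, the orphan receptor that pairs with Tek, did not share the size of the Tek difference. It had values of 6.91, 7.00, 7.14 and 6.98 in 7-day skin and 7.08, 6.96, 7.25 and 7.16 in 3-day skin, against 6.94 and 6.95 in control skin. The controls lay within the 7-day range and just below the 3-day range, and the log2 differences were 0.06 ± 0.10 in 7-day minus control and 0.16 ± 0.10 in 3-day minus control skin (adjusted p = 0.973 and 0.635 by limma).

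The ligands and partners of Tek and Tie1 were read from a list of 7 genes, none of which passed the threshold. The median log2 difference of these 7 genes was 0.04 in 7-day minus control and 0.11 in 3-day minus control skin, with 5 of 7 above 0 in each, and an unadjusted p under 0.05 for 0 genes in 7-day and 1, Angpt2, in 3-day skin. Over all genes 55% in 7-day and 50.6% in 3-day skin were above 0, and 3.21% and 5.67% were higher at that p. Angpt2, a context-dependent antagonist of Tek released by activated endothelium, had values of 5.97, 6.11, 6.22 and 6.19 in 7-day skin, 6.30, 6.34, 6.58 and 6.25 in 3-day skin, and 6.18 and 5.99 in control skin. All 3-day arrays lay above every other array, and the 7-day arrays lay around the controls. Its log2 difference in 7-day minus 3-day skin was -0.24 ± 0.092 (adjusted p = 0.46 by limma). Angpt1, the activating ligand made by perivascular and stromal cells, was lowest in 3-day skin: its values were 7.16, 7.08, 7.35 and 7.11 in 7-day skin, 7.03, 6.84, 6.57 and 6.75 in 3-day skin, and 7.07 and 6.74 in control skin. The log2 difference of Angpt1 in 7-day minus 3-day skin was 0.38 ± 0.11 (adjusted p = 0.346 by limma), and these groups did not overlap.

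Angpt1 and Angpt2 therefore lay on opposite sides between the PUVA groups, each without overlap, as 2.95% of all genes did upward and 2.28% downward, and neither passed the adjusted threshold. Svep1, an extracellular matrix protein that binds Tie1, also did not overlap, with a log2 difference of -0.34 ± 0.087 in 7-day minus 3-day skin (adjusted p = 0.278 by limma). These 3 genes were the members of the list with an unadjusted p under 0.05 in that comparison, 1 higher and 2 lower. Over all genes 5.33% were higher and 4.43% lower at that p by limma. Angpt1 and Svep1 were named after their values were seen. Ptprb, the endothelial phosphatase that restrains Tek, had log2 differences of 0.20 ± 0.13 in 7-day minus control and 0.16 ± 0.13 in 3-day minus control skin. The adaptor Dok2 and the angiopoietin-like Angptl1 differed from control in 7-day skin by 0.13 for Dok2 and -0.16 for Angptl1, and in 3-day skin by 0.11 for Dok2 and -0.18 for Angptl1, all within 1 SE of 0.

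The VEGF receptors differed little. Kdr, the main signalling receptor, had values of 9.07, 8.70, 8.89 and 8.90 in 7-day skin and 8.84, 8.97, 8.89 and 8.88 in 3-day skin, against 8.80 and 8.73 in control skin. All 3-day arrays were above both controls, the nearest only just, and the 7-day range took in both controls. The log2 difference was 0.12 ± 0.10 in 7-day minus control skin (95% interval -0.10 to 0.34) and 0.13 ± 0.10 in 3-day minus control skin (-0.09 to 0.35), with adjusted p-values of 0.948 and 0.735 by limma. Flt1, which binds VEGF tightly and signals weakly, had values of 7.93, 7.87, 7.92 and 7.66 in 7-day skin and 7.72, 7.78, 7.84 and 7.87 in 3-day skin, against 7.83 and 7.61 in control skin. The groups overlapped, and the sign of the 3-day difference turned to -0.03 without control replicate 2. The log2 differences were 0.12 ± 0.10 in 7-day minus control and 0.08 ± 0.10 in 3-day minus control skin.

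Of 8 VEGF ligands and co-receptors, 5 were above control in 7-day skin and 6 in 3-day skin, with median log2 differences of 0.10 in 7-day and 0.13 in 3-day skin. None passed the threshold, and the unadjusted p was under 0.05 for 0 genes in 7-day and 1, Nrp1, in 3-day skin. Over all genes 55% in 7-day and 50.6% in 3-day skin were above control, and 3.21% and 5.67% were higher at that p. The co-receptor Nrp1 had values of 9.20, 9.01, 8.94 and 8.96 in 7-day skin and 9.18, 9.77, 9.07 and 9.23 in 3-day skin, against 8.87 and 8.85 in control skin. All 8 PUVA arrays lay above both controls, as for 2.95% of all genes. The log2 differences of Nrp1 were 0.16 ± 0.17 in 7-day minus control and 0.45 ± 0.17 in 3-day minus control skin (adjusted p = 0.962 and 0.453 by limma). Nrp2, the co-receptor of lymphatic vessels, had log2 differences of -0.29 ± 0.22 in 7-day minus control and -0.21 ± 0.22 in 3-day minus control skin. Their sign rested on control replicate 2, at 9.41. The means of Nrp2, 8.75 in 7-day and 8.84 in 3-day skin, lay above control replicate 1, at 8.68. The ligand Vegfd differed from control by 0.23 ± 0.19 in 7-day and 0.25 ± 0.19 in 3-day skin, and Vegfb by 0.20 ± 0.13 in 7-day and 0.12 ± 0.13 in 3-day skin. Vegfa, the chief ligand of Kdr and named here for that role after its values were seen, differed by 0.15 ± 0.15 in 7-day and -0.02 ± 0.15 in 3-day skin.

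Among the junction genes, Cdh5 and Pecam1 were highest in 3-day skin. Cdh5 (probe set 17504399) encodes VE-cadherin, the adhesion protein of endothelial adherens junctions. Its values were 9.66, 9.74, 9.84 and 9.61 in 7-day skin and 9.93, 9.81, 9.86 and 9.90 in 3-day skin, against 9.61 and 9.67 in control skin. The 4 arrays of 3-day skin lay close together above both controls, while the 7-day arrays reached both groups. Its mean was 9.71 ± 0.10 in 7-day and 9.88 ± 0.048 in 3-day skin (SD, n = 4 each), against 9.64 ± 0.044 in control skin (SD, n = 2). The log2 difference was 0.07 ± 0.085 in 7-day minus control skin (adjusted p = 0.969 by limma) and 0.23 ± 0.085 in 3-day minus control skin (adjusted p = 0.445). In 7-day minus 3-day skin it was -0.16 ± 0.069, with a 95% interval of -0.32 to -0.01 (adjusted p = 0.49 by limma). An exact permutation test of the 4 arrays against 4 gave p = 0.0571, where 0.0286 is the smallest two-sided p that 70 assignments allow.

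Pecam1 encodes CD31, an adhesion protein of endothelial contacts. Its log2 values were 9.36, 9.45, 9.33 and 9.28 in 7-day skin and 9.38, 9.38, 9.55 and 9.53 in 3-day skin, against 9.38 and 9.21 in control skin. The 3-day arrays exceeded control replicate 1, but replicates 1 and 2 only beyond the second decimal. The log2 difference of Pecam1 was 0.07 ± 0.090 in 7-day minus control and 0.17 ± 0.090 in 3-day minus control skin (adjusted p = 0.971 and 0.59 by limma). Without control replicate 2 the 7-day minus control difference of Pecam1 was -0.019. Cldn5, the claudin of endothelial tight junctions, had values of 5.83, 6.11, 6.16 and 6.14 in 7-day skin and 5.95, 5.93, 6.46 and 6.01 in 3-day skin, against 5.81 and 5.83 in control skin. No PUVA array lay below a control, but 7-day replicate 1 lay level with control replicate 2 to the second decimal, and 3-day replicate 3 lay far above its group. The log2 differences of Cldn5 were 0.24 ± 0.15 in 7-day minus control and 0.27 ± 0.15 in 3-day minus control skin (adjusted p = 0.916 and 0.603 by limma).

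Of the 10 genes, Eng had the largest difference between the PUVA groups. Endoglin, its product (probe set 17369925), is a co-receptor for BMP and TGF-beta ligands on proliferating endothelium. Eng had log2 values of 8.99, 9.02, 9.42 and 9.24 in 7-day skin and 9.32, 9.51, 9.57 and 9.47 in 3-day skin, against 9.02 and 9.12 in control skin. The 7-day arrays spread from the control level up into the 3-day range, and the 3-day arrays were all above both controls. Means were 9.17 ± 0.20 in 7-day and 9.47 ± 0.11 in 3-day skin (SD, n = 4 each), and 9.07 ± 0.067 in control skin (SD, n = 2). The log2 difference in 7-day minus 3-day skin was -0.30 ± 0.10, with a 95% interval of -0.53 to -0.08 (adjusted p = 0.415 by limma; exact permutation p = 0.0571, two-sided). Against control it was 0.10 ± 0.12 in 7-day skin (adjusted p = 0.971 by limma) and 0.40 ± 0.12, a fold of 1.32, in 3-day skin (adjusted p = 0.375).

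Vwf encodes von Willebrand factor, the clotting protein that endothelium stores and releases. Its values were 7.33, 7.22, 7.17 and 7.14 in 7-day skin and 7.11, 7.17, 7.24 and 7.11 in 3-day skin, against 7.14 and 6.88 in control skin. Control replicate 2 was the lowest array, and control replicate 1 lay above 2 of the 3-day arrays and level with the lowest 7-day array to the second decimal. The log2 difference was 0.21 ± 0.10 in 7-day minus control skin (adjusted p = 0.843 by limma) and 0.08 without control replicate 2, and it was 0.15 ± 0.10 in 3-day minus control skin (adjusted p = 0.663) and 0.02 without that array. Emcn encodes endomucin, a sialomucin of venous and capillary endothelium, and had the smallest difference of the 10 in 7-day minus control skin. Its values were 7.80, 7.81, 7.94 and 7.81 in 7-day skin and 7.83, 7.82, 8.14 and 7.91 in 3-day skin, against 7.88 and 7.78 in control skin. The log2 difference of Emcn was 0.01 ± 0.10 in 7-day minus control (95% interval -0.21 to 0.24) and 0.09 ± 0.10 in 3-day minus control skin (-0.13 to 0.32). Without control replicate 2 the 7-day minus control difference of Emcn was -0.038, on the other side of 0.

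**Figure D2:**
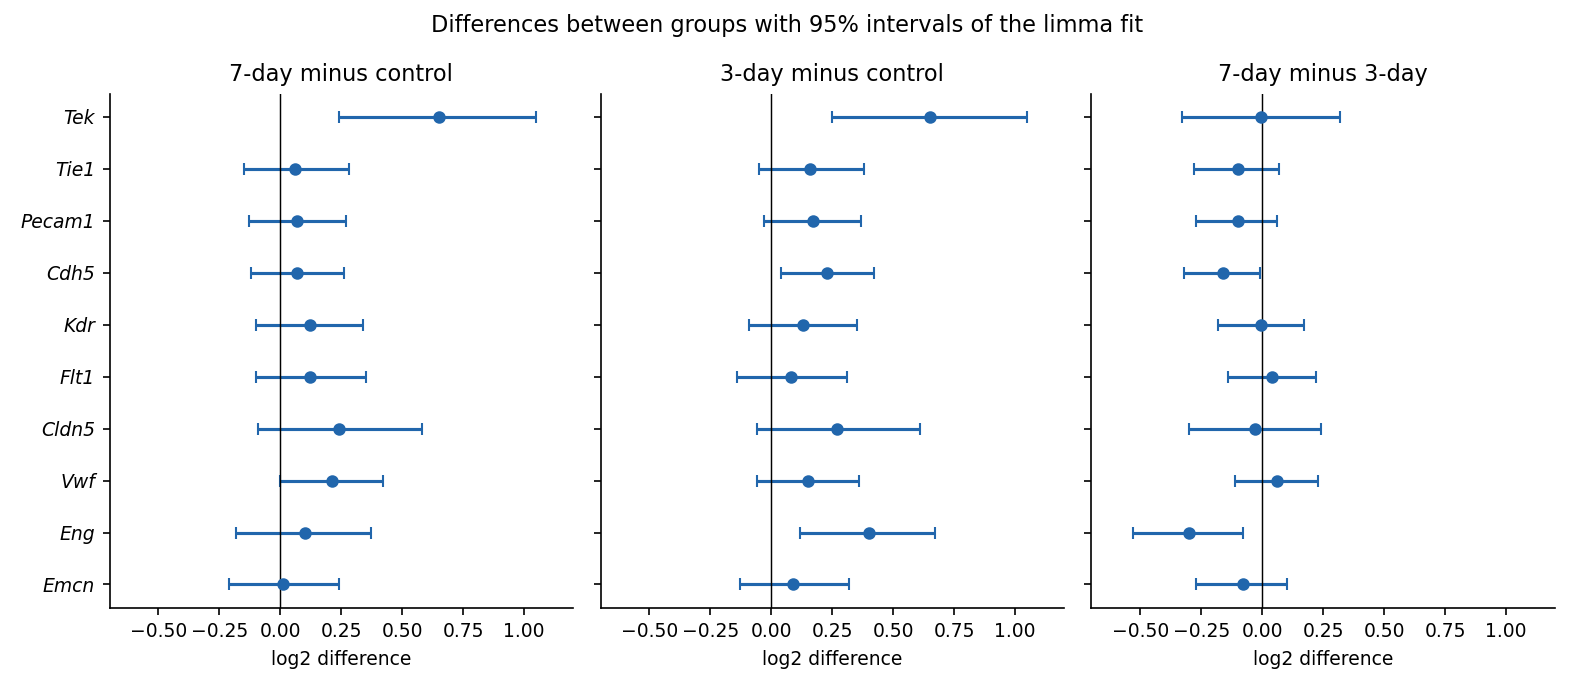
Log2 differences of the endothelial cell genes (points) with 95% intervals of the limma fit (bars) in 7-day minus control, 3-day minus control and 7-day minus 3-day skin. Tek is near 0.65 in both comparisons with control and at -0.005 between the PUVA groups, where the intervals of Eng (-0.53 to -0.08) and Cdh5 (-0.32 to -0.01) lie below 0; no gene passed the adjusted threshold.

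Counted without a model, 3 genes (Tek, Cldn5 and Vwf) were higher on every 7-day array than on both controls, as were 8.56% of all genes. In 3-day skin 7 genes were higher on every array (all but Flt1, Vwf and Emcn), as were 9.52% of all genes. For Pecam1, 3-day replicates 1 and 2 exceeded control replicate 1 only beyond the second decimal (9.38 on each). The same held for Cldn5 in 7-day replicate 1 against control replicate 2 (5.83 on each). It also held for Vwf in 7-day replicate 4 against control replicate 1 (7.14 on each). No gene of the 10 was lower on every array of a PUVA group than in control, beside 5.85% of all genes in 7-day and 7.89% in 3-day skin. With an unadjusted p under 0.05, 1 of 10 was higher in 7-day skin, where 3.21% of all genes were, and 3 of 10 were higher in 3-day skin, where 5.67% of all genes were. Without control replicate 2 the counts were 3 of 10 in 7-day and 7 of 10 in 3-day skin for arrays that do not overlap, beside 18.1% of all genes in 7-day and 20.6% in 3-day skin. The unadjusted p by limma was then under 0.05 for 0 of 10 genes in 7-day skin, beside 1.52% of all genes, and for 2, Cdh5 and Eng, in 3-day skin, beside 3.74%. Without control replicate 1 6 genes did not overlap in 7-day skin, beside 27.3% of all genes, and 10 in 3-day skin, beside 22.8%. The unadjusted p by limma was then under 0.05 for Tek and Vwf in 7-day skin, beside 4.52% of all genes, and for Tek and Vwf in 3-day skin, beside 4.08%, so that Eng and Cdh5 lost it against control. For the mean of both PUVA groups minus control, all 10 differences were above 0, beside 53.4% of all genes, 2 genes (Tek and Cldn5) were higher on all 8 PUVA arrays than on both controls, beside 2.95%, and Tek had an unadjusted p under 0.05, beside 3.93%.

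Between the PUVA groups, 8 of 10 genes were lower in 7-day than in 3-day skin, beside 46.8% of all genes, with a median log2 difference of -0.06 beside 0.010 over all genes. For 2 genes, Eng and Cdh5, the unadjusted p was under 0.05 in that direction, beside 4.43% of all genes. None of the 10 was free of overlap between the groups in either direction, beside 2.95% of all genes higher and 2.28% lower. The exact permutation p-values of the other 8 genes ranged from 0.143 to 0.971. Leaving out arrays of these groups changed the second call: Eng kept an unadjusted p under 0.05 whichever array was left out, whereas Cdh5 lost it without 3-day replicate 1, 3 or 4 and without 7-day replicate 1, 2 or 4. Centring each array on its median raised this difference by 0.028 for every gene alike, more than the size of the Tek and Kdr differences, whose sign is therefore not settled.

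The genes did not vary as a single unit over the arrays. In 3-day replicate 3, 9 of 10 genes were above their own mean over all arrays and 5 (Tie1, Pecam1, Cldn5, Eng and Emcn) had their highest value. In 3-day replicate 1, 4 of 10 genes were above their mean, with Tek and Cdh5 at their highest. In 7-day replicate 1 Kdr, Flt1 and Vwf had their highest value, while Tie1 and Eng had their lowest. Control replicate 2 held the lowest value of 5 genes (Tek, Pecam1, Flt1, Vwf and Emcn), and none of its 10 values was above the gene's mean. Over the 45 pairs of genes, Pearson's r across the 10 arrays had a median of 0.37 and ranged from -0.04 to 0.84, with 42 pairs above 0 and 16 above 0.5. After the group means were removed the median was 0.09, and 26 of 45 pairs were above 0. These are descriptions over shared arrays.

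The strongest pairs joined Tie1 with Emcn (r = 0.84), Tie1 with Cldn5 (0.78) and Cldn5 with Emcn (0.78), and these stayed at 0.82, 0.77 and 0.85 within groups. Flt1 and Vwf had r = 0.76, and 0.70 within groups. Tek was weakly related to the other 9: its r with their mean was 0.36, against 0.73 for Tie1, and within groups its r with Tie1 was -0.24. Kdr had the lowest r with the mean of the other 9 genes, 0.34.

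**Figure D3:**
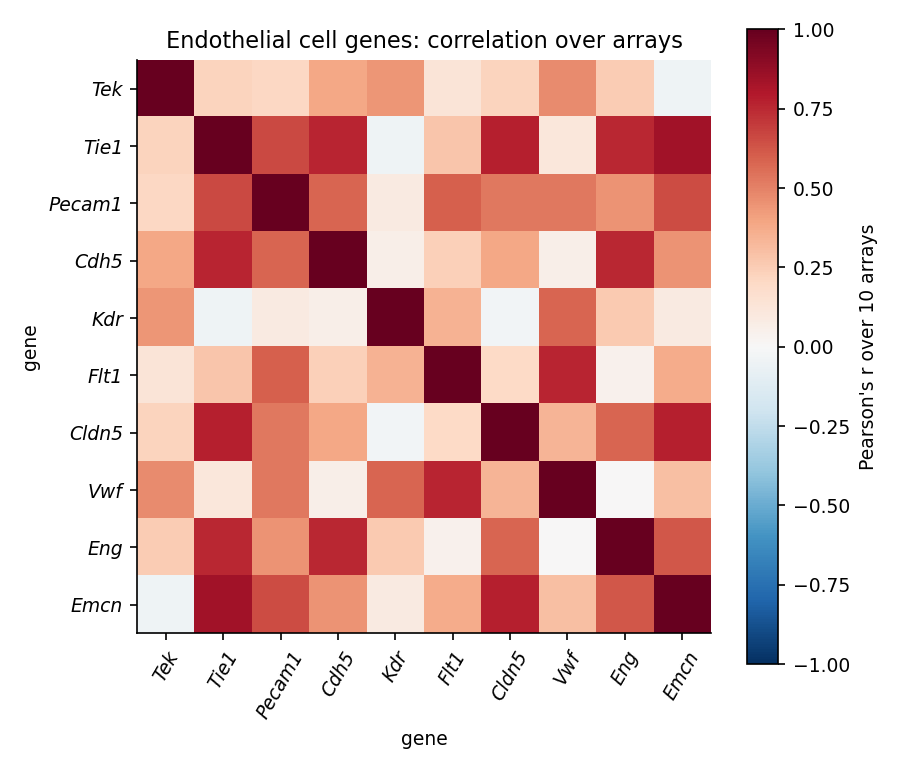
Pearson's r over the 10 arrays for each pair of the endothelial cell genes (colour, scale at right). Tie1, Cldn5 and Emcn form the strongest block, with r from 0.78 to 0.84, while Tek and Kdr are weakly related to most others; the arrays are shared by all pairs, so no test is given.

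The genes whose pattern over the 10 arrays was most like the mean of the 10 (each gene centred on its own mean) were sought among 17424 genes by Pearson's r, leaving out gene models, small RNAs and olfactory receptors. They were Sash1 (r = 0.939), the mast cell receptor gene Mrgprb1 (0.937), Mxra8 (0.926), Prss12 (0.926), Maob (0.925), Mbp (0.924), Sult2a7 (0.921), Palld (0.917), Lrrc32 (0.914) and Rab12 (0.909). For Tek they were Arhgap20 (r = 0.970), Shld1 (0.938), Sema4a (0.934), Evi5 (0.932) and Nova1 (0.931). Arhgap20 had log2 differences of 0.74 ± 0.20 in 7-day minus control and 0.72 ± 0.20 in 3-day minus control skin, and Sash1 had 0.13 ± 0.080 for 7-day and 0.24 ± 0.080 for 3-day skin. These ranks rest on few arrays: leaving out 1 array at a time kept 2 to 9 of the 10 genes nearest the mean, with 2 kept when control replicate 2 was left out, and 1 to 4 of the 5 nearest Tek.

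Other genes of endothelial cells lay on the same side of 0. Of 27 measured pan-endothelial genes outside the 10, 25 were above control in 7-day skin with a median log2 difference of 0.11, and 25 in 3-day skin with a median of 0.21. Over all genes 55% were above control in 7-day and 50.6% in 3-day skin. None of the 27 passed the threshold. With an unadjusted p under 0.05, 1 was higher in 7-day skin, beside 3.21% of all genes, and 5 were higher in 3-day skin, beside 5.67%. The mean log2 value of the list was 7.45 to 7.62 on the 7-day arrays and 7.60 to 7.64 on the 3-day arrays, against 7.43 and 7.41 on the controls, so that all PUVA arrays lay above both. Between the PUVA groups 23 of the 27 were lower in 7-day skin, beside 46.8% of all genes, with a median of -0.10. This list repeats the direction of the 10 genes in the same arrays and against the same controls.

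Of the genes nearest to significance in that list, Fli1, an ETS transcription factor of endothelium and blood cells, had log2 differences of 0.21 ± 0.12 in 7-day minus control and 0.39 ± 0.12 in 3-day minus control skin (adjusted p = 0.895 and 0.349 by limma). Robo4, an endothelial guidance receptor, had 0.09 ± 0.10 for 7-day and 0.32 ± 0.10 for 3-day skin, and did not overlap between the PUVA groups, with -0.23 ± 0.079 in 7-day minus 3-day skin (adjusted p = 0.431 by limma). Ecscr, an endothelial surface protein, had 0.15 ± 0.087 for 7-day and 0.27 ± 0.087 for 3-day skin. The adrenomedullin receptor gene Calcrl had 0.23 ± 0.11 for 7-day and 0.28 ± 0.11 for 3-day skin. All 8 PUVA arrays lay above both controls for each of these 4 genes, as for 6 of the 27 and for 2.95% of all genes. The 4 were named for having the smallest unadjusted p against control, so the choice favoured such separation.

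Genes of activated or leukocyte-binding endothelium lay highest in 3-day skin. Of 12 such genes, 8 were above control in 7-day skin with a median log2 difference of 0.10, and 11 in 3-day skin with a median of 0.31. None passed the threshold, and 1 gene in 7-day and 5 in 3-day skin had an unadjusted p under 0.05, all higher. Over all genes 55% in 7-day and 50.6% in 3-day skin were above control, and 3.21% and 5.67% were higher at that p. Vcam1, the adhesion molecule for leukocyte integrins, had values of 6.94, 6.89, 6.82 and 7.02 in 7-day skin and 7.36, 7.26, 7.11 and 7.30 in 3-day skin, against 6.73 and 7.00 in control skin. The 3-day arrays were above all others and the 7-day arrays lay close to the controls, with a log2 difference of -0.34 ± 0.084 in 7-day minus 3-day skin (adjusted p = 0.276 by limma). Tfpi, the inhibitor of tissue factor, had log2 differences of 0.19 ± 0.14 in 7-day minus control and 0.47 ± 0.14 in 3-day minus control skin. Thbd, the endothelial anticoagulant thrombomodulin, had 0.46 ± 0.17 for 7-day and 0.40 ± 0.17 for 3-day skin. The size of the Thbd differences depended on control replicate 2, at 8.05. The means of 8.77 in 7-day and 8.72 in 3-day skin were nearer to control replicate 1, at 8.58. Lifr, a cytokine receptor, had 0.20 ± 0.089 for 7-day and 0.26 ± 0.089 for 3-day skin.

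Lists of vessel patterning and of the vessel wall had medians near 0. The 14 Notch and BMP genes had median log2 differences of 0.009 in 7-day minus control and -0.05 in 3-day minus control skin, with 0 genes of unadjusted p under 0.05 in either direction by limma. Over all genes 3.21% were higher and 2.68% lower at that p in 7-day skin, and 5.67% and 4.07% in 3-day skin. Among the 14 genes Heyl, a Notch target, had -0.42 ± 0.20 for 7-day and -0.22 ± 0.20 for 3-day skin. These sizes depended on control replicate 2, at 7.21. The Heyl means of 6.48 in 7-day and 6.67 in 3-day skin lay to either side of control replicate 1, at 6.58. Acvrl1, the receptor that works with Eng, had 0.04 ± 0.092 for 7-day and 0.11 ± 0.092 for 3-day skin. The 10 tip cell genes of sprouting vessels had medians of 0.006 for 7-day and 0.03 for 3-day skin. The 15 genes of pericytes and vascular smooth muscle had medians of 0.02 for 7-day and -0.01 for 3-day skin, and list means of 8.92 to 9.14 in 7-day and 8.86 to 9.15 in 3-day skin, against 8.96 to 9.03 in control skin. None of these genes passed the threshold. Pdgfrb, which marks pericytes and fibroblasts, had a log2 difference of 0.004 ± 0.14 in 7-day minus control and 0.28 ± 0.14 in 3-day minus control skin. Anpep, on the same list, had 0.12 ± 0.13 for 7-day and 0.37 ± 0.13 for 3-day skin.

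Genes of other cells that can carry some of the 10 transcripts were read in the same way, and their part in the differences was not tested. Lymphatic endothelium (8 genes) had median log2 differences of 0.007 in 7-day minus control and 0.26 in 3-day minus control skin, with list means of 7.22 to 7.64 in 7-day and 7.46 to 8.06 in 3-day skin, against 7.45 to 7.52 in control skin. Of its defining markers, Prox1 differed from control by 0.02 ± 0.21 in 7-day and 0.27 ± 0.21 in 3-day skin, and Lyve1, which macrophages also make, by 0.29 ± 0.70 in 7-day and 1.25 ± 0.70 in 3-day skin. Lyve1 ranged between 9.74 and 12.00 on the 3-day arrays. Foxc2 in both PUVA groups and Pdpn in 3-day skin were the lymphatic genes with an unadjusted p under 0.05 by limma, counted below. Foxc2 differed from control by 0.31 ± 0.14 in 7-day and 0.36 ± 0.14 in 3-day skin, and Pdpn by 0.08 ± 0.16 and 0.41 ± 0.16. All 8 PUVA arrays lay above both controls for Foxc2, as for 2.95% of all genes. Platelet genes (9) had medians of 0.02 for 7-day and 0.008 for 3-day skin, with list means of 5.38 to 5.68 in 7-day and 5.36 to 5.73 in 3-day skin, against 5.42 to 5.43 in control skin. On the platelet list the arrays of each PUVA group lay to both sides of the controls.

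Macrophage genes (10) had median log2 differences of 0.23 in 7-day minus control and 0.53 in 3-day minus control skin, larger than those of the endothelial genes, with 9 of 10 above 0 in each, beside 55% and 50.6% of all genes. Their list means were 9.04 to 9.48 on the 7-day, 9.21 to 10.15 on the 3-day and 8.98 to 9.13 on the control arrays. C1qa, a complement component made by macrophages, had values of 9.74, 9.24, 9.37 and 9.65 in 7-day skin and 9.95, 10.57, 9.48 and 9.84 in 3-day skin, against 9.11 and 9.32 in control skin. The macrophage list mean stood apart in 3-day replicate 2, at 10.15 against 9.52 on the next array. The 27 other pan-endothelial genes and the activation genes also had their highest list means there, at 7.64 and 7.80. The next array, 3-day replicate 1, was close to these, at 7.63 and 7.79. The mean of the 10 genes was highest in 3-day replicate 3. The part of macrophages in these means was not tested. Fibroblast genes (9) had medians of 0.05 for 7-day and 0.26 for 3-day skin, and list means of 10.53 to 10.95 in 7-day and 10.96 to 11.47 in 3-day skin, against 10.55 to 10.99 in control skin. Col3a1, a fibrillar collagen, had a log2 difference of -0.87 ± 0.20 in 7-day minus 3-day skin, without overlap (adjusted p = 0.243 by limma). No gene of these 4 lists passed the threshold. In 7-day against control skin the unadjusted p was under 0.05 for 1 lymphatic, 1 platelet, 0 macrophage and 0 fibroblast genes, and in 3-day against control skin for 2 lymphatic, 1 platelet, 5 macrophage and 4 fibroblast genes, all higher. Over all genes 3.21% in 7-day and 5.67% in 3-day skin were higher at that p.

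Hair keratin and mitosis genes lay below control. All 8 inner root sheath genes and all 11 measured mitosis genes were below control in both PUVA groups, with medians of -3.23 and -0.50 in 7-day and -3.19 and -0.40 in 3-day skin, and none passed the threshold. The unadjusted p was under 0.05 for 8 hair and 9 mitosis genes in 7-day skin, where 2.68% of all genes were lower at that p, and for 8 hair and 6 mitosis genes in 3-day skin, where 4.07% were. Krt71 was at 8.04 in control replicate 1 and 11.47 in control replicate 2, and lower than both on every PUVA array. Mitosis genes had list means of 7.20 to 7.34 in 7-day and 7.36 to 7.44 in 3-day skin, against 7.46 and 8.01 in control skin. Control replicate 2 had the lower mean of the 10 endothelial genes (7.97 against 8.06) and the higher hair and mitosis values, but 2 arrays cannot show a relation. The other pan-endothelial genes were at 7.43 in control replicate 1 and 7.41 in control replicate 2. Adipocyte genes (9) had medians of 0.02 for 7-day and -0.08 for 3-day skin, with list means of 10.13 to 10.38 in 7-day and 9.93 to 10.29 in 3-day skin, against 10.18 to 10.32 in control skin. Skeletal muscle genes (10) had medians of -0.004 for 7-day and -0.12 for 3-day skin, with list means of 11.50 to 11.63 in 7-day and 11.22 to 11.69 in 3-day skin, against 11.46 to 11.60 in control skin. The part of any of these in the endothelial differences was not tested.

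**Figure D4:**
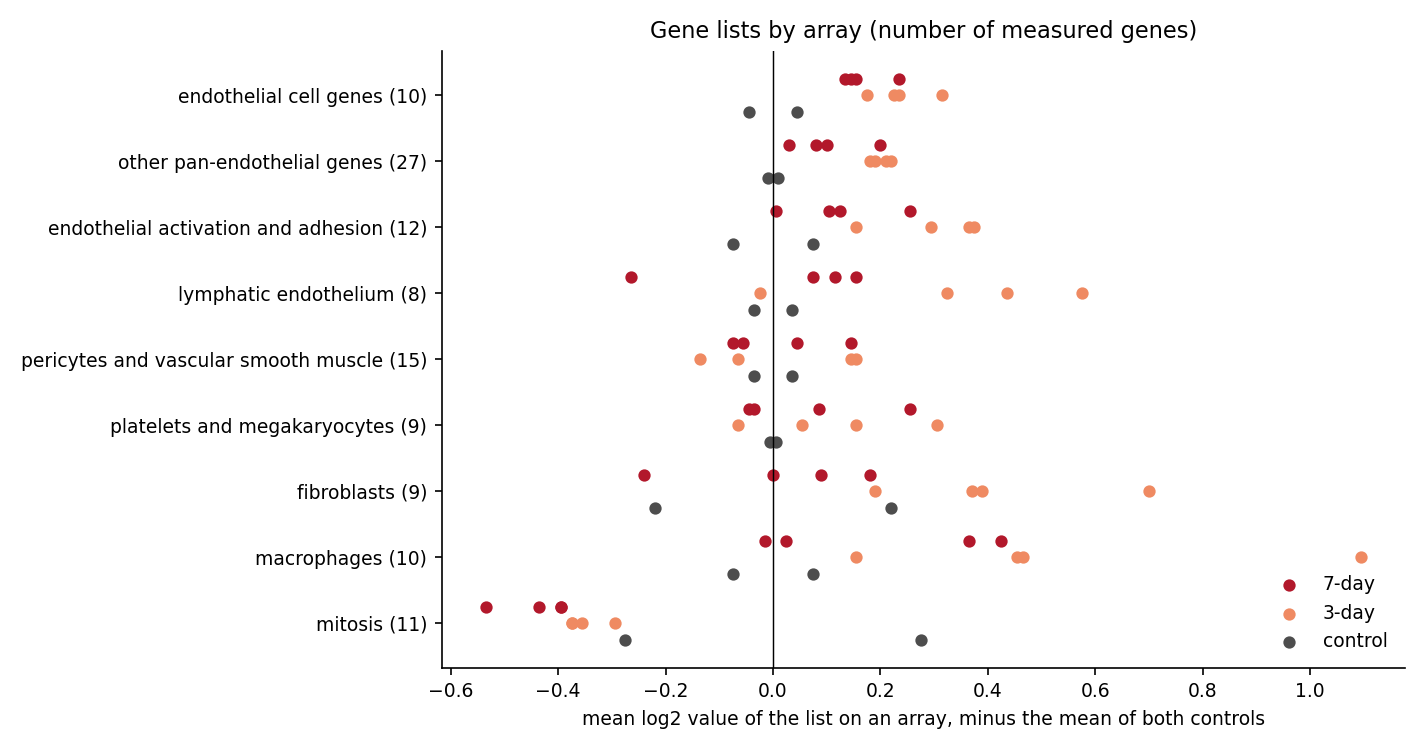
The mean log2 value of each gene list on every array, minus the mean of both controls (points; 7-day, 3-day and control arrays, with the number of measured genes in brackets). The endothelial cell genes and the other pan-endothelial genes lie above both controls on all 8 PUVA arrays, pericyte and platelet genes spread around them, macrophage and fibroblast genes are highest in 3-day skin, and mitosis genes are lowest in 7-day skin.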

How the data were processed

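RNA of 10 whole-skin samples was hybridised to Affymetrix mouse gene arrays; per the labels' protocols it was extracted with a miRNeasy kit and DNase and labelled with the WT PLUS kit. The deposited table holds the authors' processed values, read here as log2 from their range. No source used here gives the log base, normalization, scan dates or batches. Of 41345 probe sets, 23521 had 1 symbol in the platform annotation, 1814 had several and 16010 none listed. The first kind was used, taking the highest mean for the 1082 genes with more than 1. No dim filter was applied, and all 10 members lay above the lowest 30% of genes.

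Groups were fitted with limma 3.58.1 in R 4.3.3 over 10 arrays (7 residual and 3.514 prior degrees of freedom), with Benjamini-Hochberg adjustment over 22180 genes. The fit takes 1 spread per gene over all groups. The script was tested on simulated data. Exact permutation tests ran over all 70 assignments. The 10 members and 15 other lists (173 of 182 symbols matched, members included) were chosen with earlier results of these data known. Named genes were all members and the genes of most similar pattern. Genes of other lists came from the 4 per list with the smallest unadjusted p, for the mean of both PUVA groups minus control. Not all 4 were named for every list. Angpt1, Svep1, Vegfa, Hamp and Mir377 were named outside this rule. Ranges, non-overlap and leave-one-out were descriptive. The number of arrays limits the precision.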

Additional observations from a re-analysis of the deposited data

Results flagged for a closer look

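In 3 of the 22 groups of values tested, the most extreme array stood further from its neighbour than the critical share of the range (0.829 for 4 arrays). Chance flags about 1 in 20 groups. Cldn5 had its lowest 7-day value, 5.83, in replicate 1, at a gap of 0.857 of the range, and its highest 3-day value, 6.46, in replicate 3, at 0.855 of the range. Emcn had its highest 7-day value, 7.94, in replicate 3, at 0.899 of the range. Without 3-day replicate 3 the log2 difference of Cldn5 in 3-day minus control skin was 0.15, against 0.27 with it.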

How the results depend on the processing

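No member passed the adjusted threshold under any alternative, and 653 of 670 recomputed member differences kept their direction. In 3-day minus control skin 1 gene of all passed, against 2 with arrays centred on their medians, 3 with array weights, 16 at an adjusted p of 0.1, and 1 to 182 with 1 array left out (182 without control replicate 1); the median of the 10 genes ranged over 0.13 to 0.23. In 7-day minus control skin 0 genes passed, and 0 to 217 with 1 array left out (217 without control replicate 1). In 7-day minus 3-day skin 2 passed, against 1 without the lowest 30% of genes, 4 centred, 6 with array weights, 1 with only these groups fitted, 6 at an adjusted p of 0.1, and 0 to 10 with 1 array left out (10 without 3-day replicate 1). For the mean of both PUVA groups minus control, 0 genes passed (0 to 226 with 1 array left out, 226 without control replicate 1) and the members' median ranged over 0.10 to 0.20. Reversed values in 7-day minus 3-day skin were 0.023 centred and 0.026 weighted for Tek, 0.004 with quantile normalization and 0.022 centred for Kdr, and 0.002 weighted for Cldn5. With 1 array left out the sign turned within -0.086 to 0.15 for Tek, -0.065 to 0.055 for Kdr and -0.081 to 0.10 for Cldn5 there, within -0.025 to 0.19 for Flt1 in 3-day minus control skin and -0.004 to 0.21 in the mean of both groups, and within -0.019 to 0.15 for Pecam1 and -0.038 to 0.062 for Emcn in 7-day minus control skin. The cause was not tested. Counts of non-overlapping genes with 1 array left out were added after seeing the data: 3 to 6 in 7-day against control skin (8.56 to 27.3% of all genes), 7 to 10 in 3-day against control skin (9.52 to 22.8%), and 0 to 3 lower in 7-day than in 3-day skin (2.28 to 5.13%). A lone control was assumed to vary like the other groups. Centring moved the median of all genes by at most 0.028. No paired analysis was possible because replicate numbers follow accession order and pair no arrays. Signal over background was not analysed here.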
